A study of Mus musculus with 8 samples.

Results

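The immunity-related GTPases (IRGs) described here are the 7 mouse genes Irgm1, Irgm2, Igtp, Iigp1, Ifi47, Tgtp1 and Tgtp2, chosen by name and matched to 7 of the 54532 Ensembl genes counted in each library. RNA-Seq of polyadenylated RNA was performed on bone marrow-derived macrophages (BMDMs), macrophages differentiated from marrow cells with L929-conditioned medium. The 4 groups of 2 libraries were wild-type (WT) BMDMs given the vehicle DMSO, BMDMs from mice lacking Trex1 (Trex1-KO) given DMSO, Trex1-KO BMDMs given H151 at 500 nM, and Trex1-KO BMDMs given SN-011, all for 12 h. Trex1 is the exonuclease that degrades cytosolic DNA, and H151 and SN-011 are small molecules that inhibit STING, the adaptor through which cytosolic DNA triggers interferon. The labels state no dose for SN-011, and the study's methods give the same concentration for both compounds. The knockout is a germline deletion from mating of heterozygous mice, and no STING antagonist was given to WT cells. Per the study's methods, WT mice were purchased, and all mice had a C57BL/6J background. A difference in the source of the mice cannot be told apart from the genotype. The marrow donors were 6 to 8 weeks old, and the labels do not give their number. The study describes the libraries of a group as independent experiments, and the p-values rest on the spread between libraries within groups, pooled over the 4 groups.

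IRG proteins are large GTPases that interferon induces in mouse cells and that act on the membranes of vacuoles holding Toxoplasma or Chlamydia. They fall into a pair of classes. The regulatory (GMS) proteins Irgm1, Irgm2 and Igtp (also called Irgm3) sit on the cell's own membranes and keep the other class inactive there. The effector (GKS) proteins Iigp1 (Irga6), Ifi47 (Irgd) and Tgtp1 and Tgtp2 (both Irgb6) coat the pathogen's vacuole and break it open. The class names come from the first nucleotide-binding motif, in which the regulatory proteins hold a methionine at the place where other GTPases hold a lysine.

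That class difference can be read in the coding sequence. The stretches below give the 8 codons of the motif, 5′ to 3′ on the coding strand of GENCODE M21 transcripts, on mouse build GRCm38, and the capitals mark the 7th codon, ATG for methionine or AAG for lysine. Irgm1 (chr11:48866761-48866784, minus strand), Irgm2 (chr11:58219695-58219718, plus strand) and Igtp (chr11:58206275-58206298, plus strand) shared 1 identical stretch. Tgtp1 (chr11:48987667-48987690, minus strand) and Tgtp2 (chr11:49059534-49059557, minus strand) shared another, and Ifi47 (chr11:49095648-49095671, plus strand) had its own. The motif of Iigp1 was of the lysine class too.
Irgm1, Irgm2 and Igtp: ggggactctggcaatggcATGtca
Tgtp1 and Tgtp2: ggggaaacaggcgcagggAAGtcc
Ifi47: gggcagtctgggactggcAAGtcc

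Promoter windows (250 bases before to 50 after each start site, RefSeq, GRCm38.p6) were matched for 6 of the 7 genes, all but Iigp1. They were searched for the core of the interferon-stimulated response element (ISRE), spelled GAAANNGAAA on either strand, and for the core of the gamma-activated site (GAS), spelled TTCNNNGAA, whose pattern is its own reverse complement and so needs no second search. ISREs are bound by interferon regulatory factors, and a GAS is an element through which interferon-gamma induces genes. Of 32851 promoters in the table, 3.44% held the ISRE core and 8.3% the GAS core. The ISRE core was found in 5 of the 6 windows, and the GAS core in 4. In Irgm2, Igtp, Tgtp1 and Tgtp2, a GAS core was followed after 2 bases by an ISRE core. This order was read from the members first and then counted, and 5 promoters of the whole table held it (0.0152%). The other was Gm12185, a further IRG gene of the same cluster as the Tgtp genes. Irgm1 had 2 overlapping ISRE matches and no GAS core, and Ifi47 had neither pattern in this window. The stretches are shown 5′ to 3′ on the strand of the gene because their shared blocks can be seen in them, and the capitals mark the GAS and ISRE cores. The ISRE match began at position -64 from the start site in Irgm2, -34 in Igtp, -77 in Tgtp1, -70 in Tgtp2 and -75 in Gm12185, and at -30 and -24 in Irgm1. A match is a run of letters and says nothing of binding.
Irgm2, chr11:58214888-58214947, plus strand: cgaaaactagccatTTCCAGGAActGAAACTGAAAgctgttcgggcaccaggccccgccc
Igtp, chr11:58199497-58199556, plus strand: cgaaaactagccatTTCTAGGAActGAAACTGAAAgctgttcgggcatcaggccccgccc
Tgtp1, chr11:48992289-48992348, minus strand: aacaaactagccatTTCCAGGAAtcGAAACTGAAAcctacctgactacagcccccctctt
Tgtp2, chr11:49064248-49064307, minus strand: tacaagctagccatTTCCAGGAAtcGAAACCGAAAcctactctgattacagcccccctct
Gm12185, chr11:48927223-48927282, minus strand: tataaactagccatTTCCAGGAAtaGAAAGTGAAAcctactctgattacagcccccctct
Irgm1, chr11:48871410-48871475, minus strand: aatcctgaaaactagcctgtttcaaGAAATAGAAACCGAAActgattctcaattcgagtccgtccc

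Total counts ran from 11845470 to 17284863 per library, so 1 count was worth 0.0582 to 0.0849 CPM (counts scaled to one common library total, here with TMM factors of 0.973 to 1.04). Trex1 had 0 counts in all 8 libraries, WT included, and its exons overlap those of Atrip, so the counts could not check the genotype, which rests on the labels. The 8 macrophage markers summed to 30600 to 32800 CPM in every library. The 7 neutrophil markers summed to 7.66 to 7.86 CPM in the WT libraries, 50.0 to 70.3 in the Trex1-KO, 64.3 to 65.0 with H151 and 63.5 to 79.8 with SN-011, and all 4 of those tested were called higher in Trex1-KO. The 6 fibroblast markers summed to 2070 to 2270 CPM in WT, 849 to 1050 in Trex1-KO, 1090 to 1200 with H151 and 920 to 1110 with SN-011, and 4 of the 5 tested were called lower in Trex1-KO. Of the macrophage markers, 3 of 8 were called higher in Trex1-KO and none lower. Of the 3 dendritic cell markers tested, 2 were called higher and none lower. The 6 listed summed to 1.69 to 2.72 CPM in WT and 3.43 to 3.70 in Trex1-KO, but did not move together. Clec9a averaged 0.286 CPM in WT and 1.76 in Trex1-KO, and Xcr1 averaged 0.144 and 1.1. Zbtb46 went the other way, at 1.43 and 0.566, as did Flt3, at 0.277 and 0.0659. The sums of T and NK cell, B cell and dendritic cell markers stayed at or below 0.849, 5.18 and 3.70 CPM, with Ccr7 at 0 throughout. Each Trex1-KO and WT value below carries these marker differences with it, and their part in the results was not tested. In bulk RNA, fewer cells of a type and less RNA per cell cannot be told apart.

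The first comparison asked how Trex1 loss changed the family. All 7 genes passed the filter on low counts, and 6 of them rose in Trex1-KO BMDMs, with no member falling. Over all 14591 genes tested, 9.27% were called higher and 7.11% lower (edgeR quasi-likelihood test, false discovery rate under 0.05). Scaled by total counts only, 6.48% of genes were called higher and the higher share of all calls was 37.2% instead of 56.6%, while the same 6 members were called higher. The 2390 calls over all genes in both directions fell to 1556 without WT replicate 1 and 1583 without WT replicate 2, and 6 members were called in each of these fits. The median log2 fold change of the 7 was 1.53, against -0.002 over all genes. Among the effector genes, Iigp1, Tgtp2 and Ifi47 had larger log2 fold changes than any regulatory gene. The other effector gene, Tgtp1, had a smaller one than any of them, at 1.04 and not called. The difference between the classes was not tested.

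**Figure D1:**
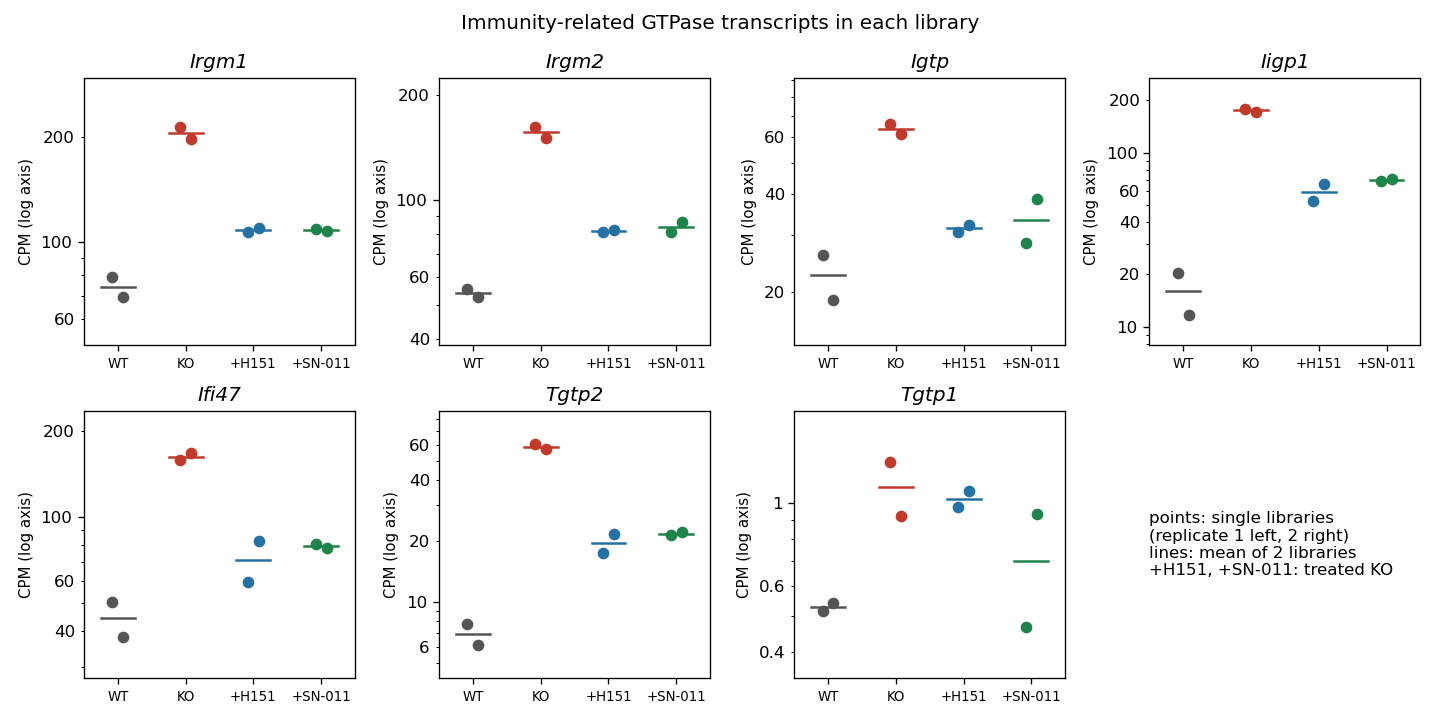
CPM (log axis, a separate scale in each panel) of the 7 IRG genes in each of the 8 libraries, with a line at the mean of the 2 libraries of a group. For 6 genes both Trex1-KO libraries lay above all other libraries, and Tgtp1 stayed at or below 1.28 CPM. The share of all genes that separate in this way was not counted.

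Among the regulatory genes, Irgm1 measured 79.0 and 69.4 CPM in WT and 213 and 197 in Trex1-KO. Irgm2 measured 55.7 and 52.7 CPM in WT and 162 and 150.6 in Trex1-KO. Igtp measured 26.1 and 19.0 CPM in WT and 65.9 and 61.3 in Trex1-KO. In all 3 genes both knockout libraries stood above both WT libraries, a separation whose share over all genes was not counted. With 2 against 2 libraries, the smallest two-sided exact permutation p is 0.333. The log2 fold changes lay close together, at 1.47 ± 0.073 (SE, n = 2 libraries per group, edgeR adjusted p = 1.04e-08) for Irgm1, 1.53 ± 0.069 (adjusted p = 5.34e-09) for Irgm2 and 1.5 ± 0.15 (adjusted p = 7.95e-06) for Igtp. These are rises of 2.77-, 2.88- and 2.83-fold.

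The effector genes spread more widely. Iigp1, the best studied vacuole-coating IRG, measured 20.4 and 11.7 CPM in WT and 179 and 172 in Trex1-KO, with no overlap. This was the largest change of the 7, a log2 fold change of 3.46 ± 0.17 (SE, n = 2 per group, edgeR adjusted p = 7.48e-09) or 11-fold. The WT libraries of Iigp1 differed more from each other than the knockout libraries did, and its log2 fold change ran from 3.09 to 3.90 when 1 library at a time was left out. Tgtp2 measured 7.80 and 6.10 CPM in WT and 60.1 and 57.0 in Trex1-KO, a log2 fold change of 3.08 ± 0.13 (adjusted p = 3.75e-09) or 8.45-fold. Ifi47 measured 50.3 and 38.3 CPM in WT and 158 and 167 in Trex1-KO, a log2 fold change of 1.88 ± 0.13 (adjusted p = 3.26e-07) or 3.68-fold.

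Tgtp1 was counted at a level far below its near-copy Tgtp2. It had 7 and 8 counts in WT, 17 and 14 in Trex1-KO, 12 and 16 with H151, and 8 and 11 with SN-011. Its log2 fold change in Trex1-KO was 1.04 ± 0.50 (SE, n = 2 per group, edgeR adjusted p = 0.198), with a 95% interval from -0.03 to 2.11, so neither the absence of a change nor a rise of the size seen in the regulatory genes was outside it. The authors counted uniquely mapped read pairs, and of the 2674 windows of 150 bases in the Tgtp1 transcript 74.1% also occur in Tgtp2 or Gm12185, while 71.7% of the 2661 windows of Tgtp2 occur in Tgtp1. That leaves 693 unique windows in Tgtp1 and 754 in Tgtp2. Both genes are therefore uncertain, and the count of either can miss reads of both. With the 2 rows summed, the log2 fold change in Trex1-KO was 3.0 ± 0.13 (adjusted p = 4.23e-09). Of the other members, Igtp shared 0.854% of its windows with an Irgm2 transcript and the transcripts searched for the remaining 4 shared none. Exons also overlap. Irgm2 and Igtp share 162 exonic bases, Ifi47 shares 111 with Olfr56 and 106 with the pseudogene Gm12188 on the other strand, and Tgtp1 shares 223 with Gm12185.

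Levels of different genes were compared per length, as CPM per kilobase of annotated exon (RPKM). In WT BMDMs the order of mean RPKM was Ifi47 (17.9 ± 3.4, SD, n = 2), Irgm2 (14.7 ± 0.59), Irgm1 (12.8 ± 1.2), Igtp (11.2 ± 2.5), Iigp1 (2.75 ± 1.1), Tgtp2 (2.37 ± 0.41) and Tgtp1 (0.165 ± 0.0059). Irgm1 and Igtp overlapped in their libraries, as did Iigp1 and Tgtp2. In Trex1-KO BMDMs the order of the means was the same, from Ifi47 (65.8 ± 2.6) through Irgm2 (42.4 ± 2.2), Irgm1 (35.3 ± 2.0), Igtp (31.5 ± 1.6), Iigp1 (30.2 ± 0.87) and Tgtp2 (19.9 ± 0.74) to Tgtp1 (0.344 ± 0.079). There Iigp1 stood level with Igtp, its libraries overlapping those of Igtp, whereas in WT both Igtp libraries, at 9.39 and 12.9 RPKM, were above both Iigp1 libraries, at 2.0 and 3.5. The order of the means was again the same under H151 and under SN-011, where the means of Iigp1 were 10.2 ± 1.6 and 12.0 ± 0.22 RPKM. The values depend on the annotated exon length, which ran from 2022 bases for Igtp to 5823 for Iigp1.

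**Figure D2:**
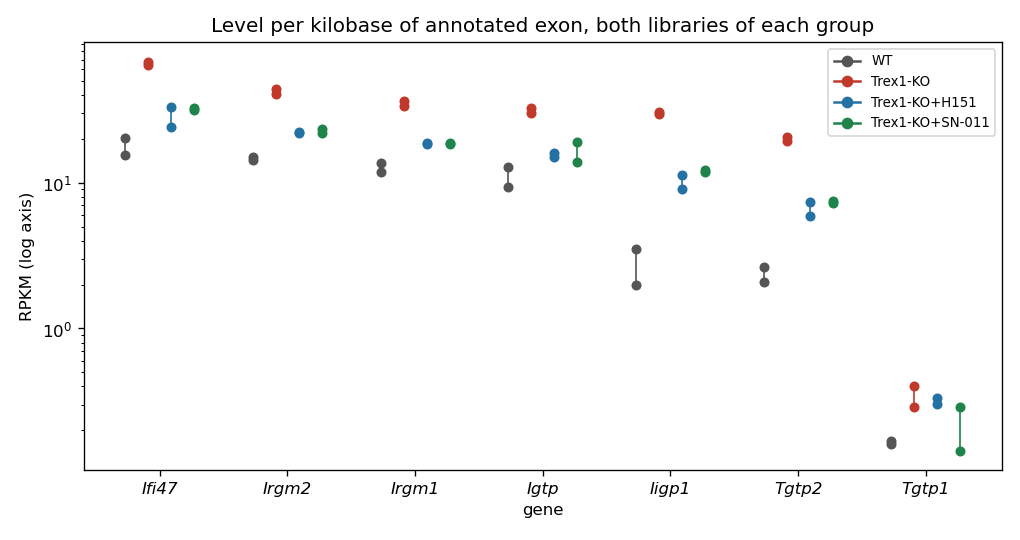
RPKM (log axis) of each IRG gene, with the 2 libraries of a group joined by a line and the groups in the order WT, Trex1-KO, Trex1-KO+H151, Trex1-KO+SN-011. Ifi47 was highest in every group, and Iigp1 and Tgtp2 lay farther below the regulatory genes in WT than in Trex1-KO.

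The makeup of the family's counts also differed between the groups. Summed over the 7 genes, the level was 219 ± 30 CPM (SD, n = 2) in WT, 823 ± 24 in Trex1-KO, 372 ± 33 with H151 and 397 ± 11 with SN-011. The ratio of effector to regulatory CPM was 0.492 and 0.401 in WT, 0.903 and 0.971 in Trex1-KO, 0.598 and 0.764 with H151, and 0.789 and 0.739 with SN-011. Both knockout libraries were above, and both WT libraries below, the 4 treated ones, and the antagonist groups overlapped. Iigp1 alone held 7.20% ± 1.8 (SD, n = 2) of the family's CPM in WT, 21.3% in both Trex1-KO libraries, 15.9% ± 1.1 with H151 and 17.6% ± 0.14 with SN-011.

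The second question was how far each STING antagonist lowered the family in Trex1-KO cells. H151 is known to attach covalently to STING, and SN-011 to occupy its cyclic dinucleotide pocket. The same 6 members fell with H151 and with SN-011, and none rose. Over all genes, 1.84% were called lower with H151 and 2.22% with SN-011. The SN-011 calls in both directions, 340 with all libraries, numbered 131 without SN-011 replicate 1, 186 without SN-011 replicate 2 and 198 without Trex1-KO replicate 1. Both comparisons use the same Trex1-KO libraries. The SN-011 libraries carry a separate treatment text in the labels, and a batch limited to them cannot be told apart from SN-011.

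**Figure D3:**
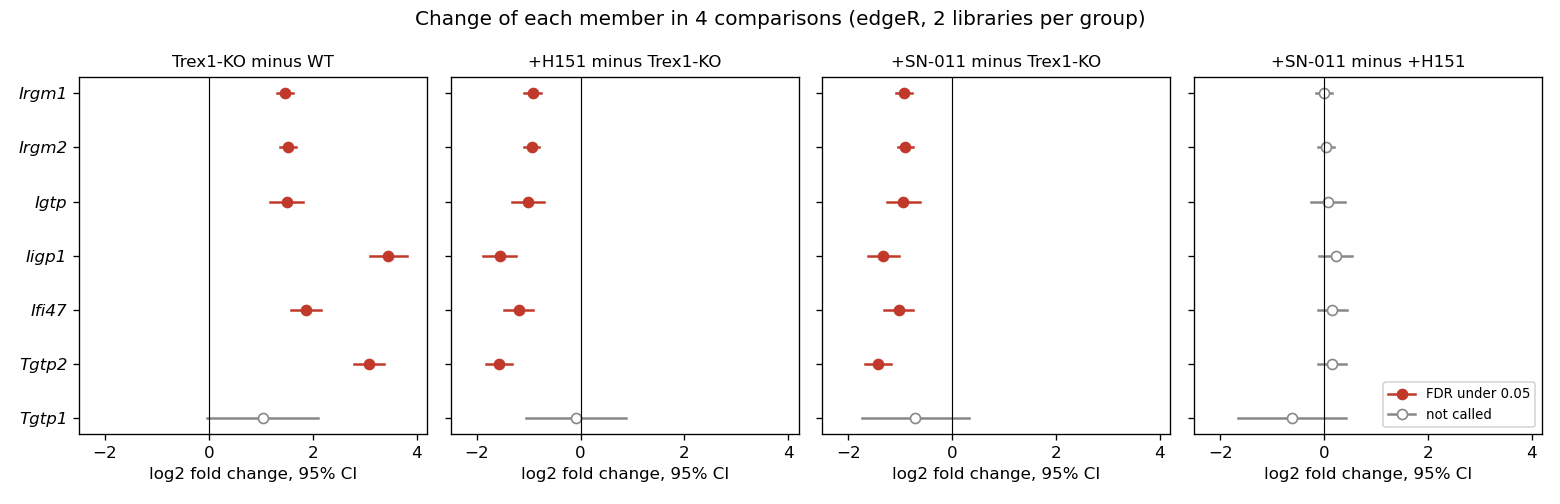
Log2 fold changes with 95% intervals of the 7 IRG genes in 4 comparisons (edgeR, 2 libraries per group), filled red where the false discovery rate was under 0.05. In the first 3 comparisons 6 genes were called and Tgtp1 was not, and in the comparison of the antagonists every interval held 0.

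Irgm1 measured 107 and 110 CPM with H151 and 109 and 107 with SN-011, between the WT and the Trex1-KO libraries. Its log2 fold change against Trex1-KO was -0.92 ± 0.071 (SE, n = 2 per group) with either compound, with edgeR adjusted p = 1.13e-05 for H151 and 1.78e-05 for SN-011. Irgm2 measured 80.7 and 81.9 CPM with H151 and 80.7 and 86.7 with SN-011, log2 fold changes of -0.94 ± 0.067 (adjusted p = 8.25e-06) and -0.90 ± 0.067 (adjusted p = 1.71e-05). These 2 genes were tightly grouped within each treatment. Igtp measured 30.6 and 32.2 CPM with H151 and 28.3 and 38.6 with SN-011, log2 fold changes of -1.01 ± 0.14 (adjusted p = 0.00104) and -0.94 ± 0.14 (adjusted p = 0.0019). The SN-011 libraries of Igtp were the most spread of the 3 regulatory genes. Without the first of them the log2 fold change was -0.72 and no longer called (adjusted p = 0.0659).

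Iigp1 measured 52.6 and 66.0 CPM with H151 and 69.1 and 70.9 with SN-011, and its log2 fold changes were -1.56 ± 0.14 (SE, n = 2 per group, edgeR adjusted p = 2.82e-05) and -1.33 ± 0.14 (adjusted p = 0.000101). Tgtp2 measured 17.5 and 21.6 CPM with H151 and 21.5 and 22.1 with SN-011, with log2 fold changes of -1.57 ± 0.12 (adjusted p = 8.52e-06) and -1.43 ± 0.12 (adjusted p = 2.03e-05). Every treated library of these 2 effectors stood between the WT and the knockout libraries. Ifi47 measured 59.2 and 82.4 CPM with H151 and 80.9 and 78.1 with SN-011, with log2 fold changes of -1.19 ± 0.13 (adjusted p = 0.000104) and -1.03 ± 0.13 (adjusted p = 0.000383). Its H151 libraries differed more than those of any other called member. Tgtp1 gave -0.09 ± 0.45 with H151 and -0.71 ± 0.48 with SN-011 (adjusted p = 0.992 and 0.598), and the intervals, from -1.05 to 0.87 and from -1.73 to 0.32, held the falls of the regulatory genes. The summed Tgtp1 and Tgtp2 rows fell by 1.53 and 1.41 on the log2 scale (adjusted p = 1.04e-05 and 2.07e-05).

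Each fall was also set against the excess that Trex1 loss had brought. The excess is the mean CPM above the WT mean, as a percent of that of the Trex1-KO mean. With H151 the 6 called members kept between 21.6% (Igtp) and 27.1% (Iigp1) of it, and with SN-011 between 25.8% (Irgm1) and 33.8% (Iigp1). The most spread pairs of libraries were 12.6% and 32.2% for Ifi47 with H151 and 14.1% and 39.2% for Igtp with SN-011. With SN-011 both Iigp1 libraries, at 33.2% and 34.4%, lay above those of every other called member except Igtp, and with H151 both Igtp libraries, at 19.7% and 23.6%, lay below those of Irgm1 and Irgm2. For Irgm1 all 4 treated libraries lay between 24.9% and 27.1%. These shares use the same Trex1-KO and WT libraries as the fold changes and were not tested.

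**Figure D4:**
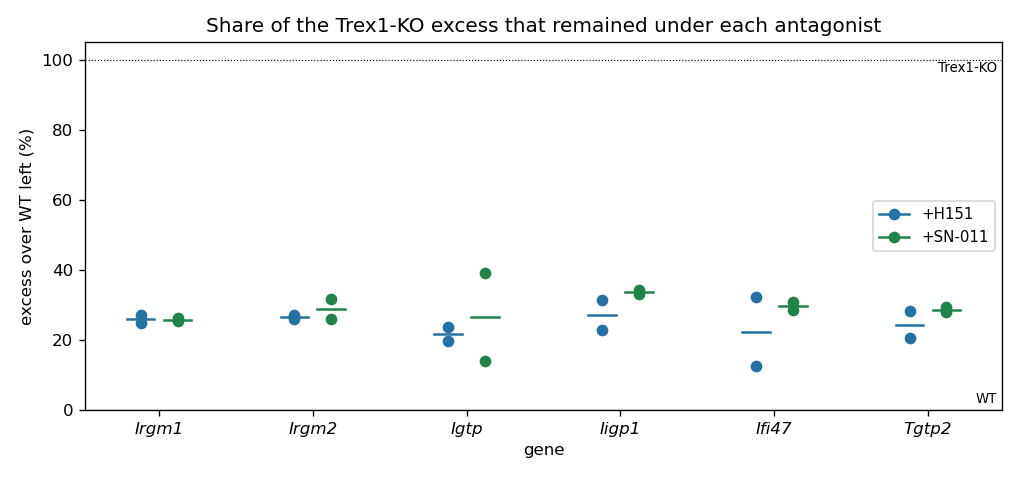
Percent of the Trex1-KO excess over WT that remained in each antagonist library, for the 6 IRG genes that were called (Tgtp1, with few counts, is left out), with a line at the mean of 2 libraries. All points lay between 12.6% and 39.2%.

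The antagonist groups were next compared with WT. There, 5 of the 7 members were still higher with H151 and 6 with SN-011, where 6.79% and 6.18% of all genes were called higher. Without WT replicate 1 or 2, the calls in both directions over all genes fell from 1726 to 971 or 1091 with H151, and without WT replicate 1, SN-011 replicate 1 or SN-011 replicate 2 from 1714 to 956, 1055 or 909 with SN-011. Iigp1 stood at 3.70 times its WT mean with H151 and 4.37 times with SN-011, and its log2 fold changes against WT were 1.90 ± 0.17 (SE, n = 2 per group, edgeR adjusted p = 7.80e-06) and 2.14 ± 0.17 (adjusted p = 2.34e-06). Tgtp2 stood at 2.82 and 3.13 times its WT mean (adjusted p = 1.37e-05 and 5.19e-06). Irgm1, Irgm2, Igtp and Ifi47 stood between 1.39 and 1.79 times WT. Igtp was the least certain of these. Its log2 fold change was 0.48 ± 0.15 with H151, not called (adjusted p = 0.0613), and 0.56 ± 0.15 with SN-011 (adjusted p = 0.0299). The H151 call on Igtp passed the threshold with 2 other tests, DESeq2 (adjusted p = 0.0464) and the edgeR exact test (adjusted p = 0.0242). Its log2 fold change with H151 was 0.72 without WT replicate 1 (adjusted p = 0.0264) and 0.26 without WT replicate 2 (adjusted p = 0.448), and over all alternatives the adjusted p ran from 0.00072 to 0.448. The SN-011 call was lost without WT replicate 2 (log2 fold change 0.34) or without SN-011 replicate 2 (0.32). Without WT replicate 2 the call on Ifi47 with H151 was lost as well, at 0.49 against 0.68 with all libraries.

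The antagonists were also compared with each other. None of the 7 members was called in either direction (edgeR quasi-likelihood test), none had an unadjusted p under 0.05, and DESeq2 and the edgeR exact test called 0 as well. Over all genes 0.158% (23 genes) were called lower with SN-011 and 0 higher. That count rested on single libraries, with 291 genes called in both directions without H151 replicate 2, 2 without SN-011 replicate 1 and 11 without SN-011 replicate 2, and 0 members called in each of these fits. The SN-011 to H151 ratio was 0.998 for Irgm1, with a 95% interval of the log2 difference from -0.16 to 0.15, and the log2 differences were 0.04 (-0.11 to 0.19) for Irgm2 and 0.08 (-0.25 to 0.40) for Igtp. For the effectors they were 0.23 (-0.09 to 0.55) for Iigp1, 0.16 (-0.12 to 0.45) for Ifi47 and 0.15 (-0.12 to 0.42) for Tgtp2. The intervals give the differences compatible with these 2 libraries per group, and no detection limit was computed. Tgtp1, at -0.62 (-1.66 to 0.42), was the least bounded.

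The genes of the family lie in 3 clusters. On chromosome 11 (GRCm38, GENCODE M21), the first spans 48861968 to 49096974 and holds Irgm1 (48861968 to 48871683, minus strand), Tgtp1 (48985327 to 48994172, minus), Tgtp2 (49057194 to 49064206, minus) and Ifi47 (49076587 to 49096974, plus) with 4 other IRG genes. Of its 8 IRG genes, 6 were called higher in Trex1-KO, where 9.27% of all tested genes were. The second, from 58187739 to 58222782, holds Igtp (58199556 to 58207591, plus), Irgm2 (58199618 to 58222782, plus) and Gm12250, and all 3 were called higher. On chromosome 18, from 60212080 to 60392634, Iigp1 (60376027 to 60392634, plus) lies with Gm4951, Gm4841 and F830016B08Rik, and all 4 were called higher. The members' Ensembl identifiers are ENSMUSG00000046879 (Irgm1), ENSMUSG00000069874 (Irgm2), ENSMUSG00000078853 (Igtp), ENSMUSG00000054072 (Iigp1), ENSMUSG00000078920 (Ifi47), ENSMUSG00000078922 (Tgtp1) and ENSMUSG00000078921 (Tgtp2).

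Between the IRG genes of a cluster lay 3 tested genes outside the list, which are named here after their values were seen, and all 3 were called higher in Trex1-KO. Olfr56, which shares exons with Ifi47, had a log2 fold change of 2.22 ± 0.25 (SE, n = 2 per group, edgeR adjusted p = 2.72e-05). Psme2b had 0.78 ± 0.098 (adjusted p = 7.56e-05), and the pseudogene Gm5970 of the Iigp1 cluster had 1.66 ± 0.32 (adjusted p = 0.00236). Within 500 kb of the first chromosome 11 cluster 0 of 8 tested genes were called (edgeR quasi-likelihood test), 0 had an unadjusted p under 0.05, and DESeq2 and the edgeR exact test called 0. Over all tested genes 9.27% were called higher and 7.11% lower. Near the second cluster, 1 of 12 was called higher and 1 lower, close to those shares. Near the Iigp1 cluster 3 of 9 were called higher and 1 lower. The 3 higher ones were the pseudogene BC023105 (log2 fold change 3.37 ± 0.69), Cd74, the MHC class II invariant chain (1.54 ± 0.075), and Tcof1 (0.49 ± 0.073).

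A list of 10 other IRG-like genes was set beside the members. Of the 9 tested, 7 rose in Trex1-KO and none fell, with a median log2 fold change of 1.31. F830016B08Rik (2.68 ± 0.12, SE), Gm4951 (2.47 ± 0.11) and Gm4841 (2.11 ± 0.46) rose most. The lowest of the called genes were 9930111J21Rik1 (0.94 ± 0.15), 9930111J21Rik2 (1.04 ± 0.11) and Gm5431 (1.31 ± 0.081), and they share 57.7%, 36.1% and 15.1% of their windows with one another or Gm12185. Gm12185, whose promoter held the same GAS and ISRE order as 4 members, had a log2 fold change of 0.28 ± 0.21 (adjusted p = 0.448) at 5.95 CPM in WT and 7.24 in Trex1-KO. Irgq, which is not known as an interferon-induced gene, had -0.07 ± 0.095 (adjusted p = 0.701), and Irgc1, a gene of the testis, had at most 3 counts in any library. H151 lowered 4 of the 9, and SN-011 lowered 5. F830016B08Rik fell by 0.63 on the log2 scale with H151 and by 0.90 with SN-011, and its difference between the compounds, -0.27, did not pass the test (adjusted p = 0.495).

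**Figure D5:**
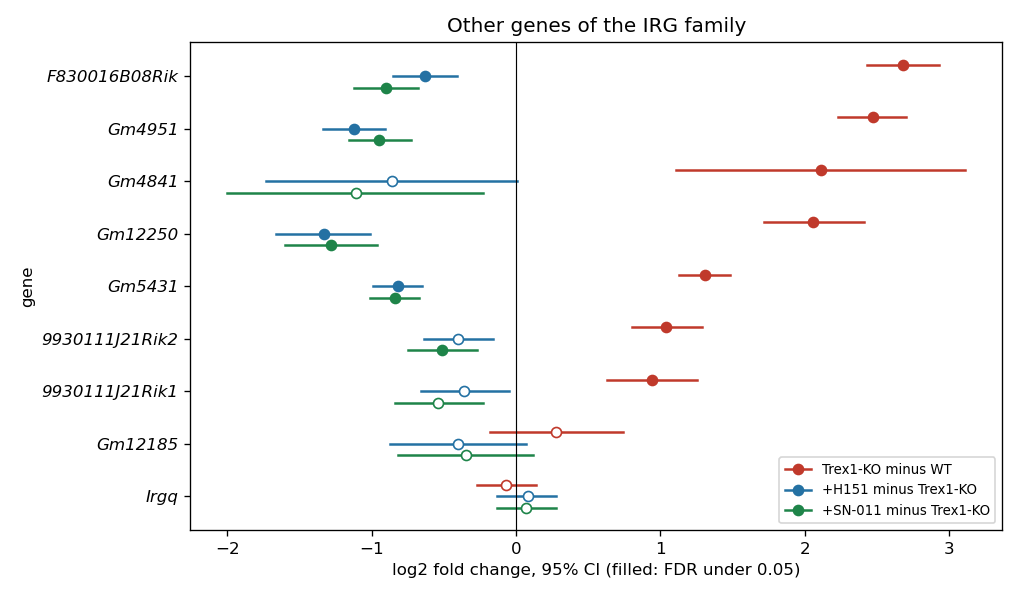
Log2 fold changes with 95% intervals of the 9 tested IRG-like genes outside the 7 members, in Trex1-KO against WT (red), with H151 against Trex1-KO (blue) and with SN-011 against Trex1-KO (green), filled where the false discovery rate was under 0.05. The upper 7 genes were called higher in Trex1-KO, while Gm12185 and Irgq lay near 0.

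Genes of the interferon pathway that induces IRGs were followed beside them. Ifng, the cytokine best known for inducing IRGs, had 0 counts in 7 libraries and 1 in the other, and Ifnb1 had at most 2, so neither was tested. Of the 14 tested genes of this list, 9 rose in Trex1-KO and none fell, with a median log2 fold change of 0.39. Usp18, a brake on the type I interferon receptor, rose by 2.63 ± 0.16 (SE) on the log2 scale, and Stat2, a transcription factor of type I interferon signalling, by 1.57 ± 0.066. The smallest called rises were in the receptor chain Ifnar2 (0.24 ± 0.055), the kinase Jak2 (0.33 ± 0.081) and the repressor Irf2 (0.46 ± 0.060). The chains of the interferon-gamma receptor, Ifngr1 (-0.04 ± 0.056) and Ifngr2 (0.15 ± 0.061), were not called. Each antagonist lowered 5 of the 14. Stat2 changed by -1.05 with H151 and -0.98 with SN-011. Usp18 changed by -1.28 and -0.99.

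IRG proteins are loaded onto vacuoles with help from the ATG8 conjugation machinery of autophagy. Of its 10 genes, 1 rose and 1 fell in Trex1-KO, near the 9.27% and 7.11% of all genes, and the median log2 fold change was 0.04. DESeq2 called 1 of the 10. Atg7, the E1-like enzyme, rose by 0.23 ± 0.068 (SE, edgeR adjusted p = 0.0359), and Map1lc3a, which encodes an ATG8 protein, fell, at -0.43 ± 0.11 (adjusted p = 0.0146). With either antagonist 0 of the 10 were called against Trex1-KO by the quasi-likelihood test, by DESeq2 or by the edgeR exact test, and an unadjusted quasi-likelihood p under 0.05 was found for 0 with H151 and 1 with SN-011. A second list held partners of the IRGs on the vacuole coat, and the lists were not tested against each other. Of 9 tested, 8 rose in Trex1-KO, with a median of 1.20. Gbp6 rose by 4.08 ± 0.27, Gbp3 by 1.37 ± 0.11 and Gbp9 by 1.32 ± 0.079, all guanylate-binding proteins that join IRGs in attacking vacuoles. The smallest called rises were in the adaptor Sqstm1 (0.22 ± 0.065), Gbp7 (0.78 ± 0.097) and the ubiquitin ligase Trim21 (0.89 ± 0.098). Each antagonist lowered 7 of the 9.

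Across the 8 libraries, log2 CPM of the 6 members other than Tgtp1 correlated pairwise with a Pearson's r from 0.930 to 0.996 (15 pairs), and Tgtp1 with each of them from 0.623 to 0.728. These libraries fall into 4 groups, so the values describe the group pattern and carry no test. The 5 genes outside the family whose log2 CPM followed the members' mean profile most closely, among genes whose average log2 CPM was 2 or more, were Zbp1 (r = 0.998), Phf11b (0.998), Oas1a (0.996), Tapbp (0.995) and Helz2 (0.994). Zbp1, a sensor of Z-form nucleic acids, averaged 32.3 CPM in WT, 141 in Trex1-KO, 67.1 with H151 and 66.2 with SN-011. Tapbp, the tapasin of MHC class I loading, had the same pattern over a narrower range, from 279 CPM in WT to 461 in Trex1-KO.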

How the data were processed

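The authors prepared polyadenylated RNA from the 8 BMDM cultures, trimmed paired reads with Trimmomatic, aligned them with hisat2 and, per the study's methods, counted uniquely mapped pairs with featureCounts; the submitters' notes list HISAT2, HTSeq and mm10. Versions, annotation release and strand setting are not given in the sources used here. The deposited values are raw counts per Ensembl gene, with no normalization. Symbols and positions came from GENCODE M21, which held 54495 of the 54532 identifiers. Promoter windows came from RefSeq (GRCm38.p6).

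Counts were analysed in R 4.3.3 with edgeR 4.0.16 (TMM factors, filterByExpr with a minimum count of 10, 14591 genes). The 8 libraries were fitted together by quasi-likelihood, each group with its own mean. Tests were two-sided, adjusted over all tested genes by Benjamini-Hochberg, with a threshold of 0.05. The SE was derived from the fold change and its F statistic and is approximate. The fit was tested on simulated data. Intervals cover counting and library spread only. Alternatives were total counts, relative log expression factors, DESeq2 1.42.0, the edgeR exact test, other filters, a replicate block, single libraries left out and summed Tgtp rows.

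The members and lists were chosen with earlier results of these data known. All 7 belong to a gene module that the study chose in view of how it moved in Trex1-KO BMDMs, so the members' direction is not independent evidence. Named genes are the members, Trex1, in each list at most 3 highest and 3 lowest of the genes called in Trex1-KO, the 5 genes most like the members' mean profile, and those said to be chosen after their values were seen or because a statement turns on them. One further gene that this rule would name is not reported here.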

Additional observations from a re-analysis of the deposited data

How the results depend on the processing

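Of 695 values of single members under the alternatives, 675 kept their direction and their side of the threshold, 4 lost a call, 8 gained one and 8 changed sign. The members called numbered 6 in Trex1-KO against WT and 6 with H151 against Trex1-KO under every alternative run, 5 to 6 with SN-011 against Trex1-KO, 0 between the antagonists, 4 to 6 with H151 against WT and 5 to 6 with SN-011 against WT. All sign changes were of values that were not called. Between the antagonists, Irgm1 gave 0.00091 with total counts only, and with single libraries left out it ran from -0.02 to 0.02, Irgm2 from -0.01 to 0.09, Igtp from -0.15 to 0.29 and Ifi47 from -0.05 to 0.42. With single libraries left out, Tgtp1 ran from -0.31 to 0.16 for H151 against Trex1-KO and from -0.19 to 0.81 for SN-011 against WT. A minimum count of 30 removed Tgtp1, and that setting gives no value for it.

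The labels do not say what the replicate numbers stand for. Deviations of same-numbered libraries correlated at 0.19 between Trex1-KO and H151 and between -0.016 and 0.061 for the other pairs of groups, so the numbers were not taken as pairs. With the replicate number as a block, 6 members were called in each comparison except that of the antagonists, where 0 were, and Igtp with H151 against WT was called (log2 fold change 0.48, adjusted p = 0.0478).

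Scaling by total counts only changed the calls over all genes in Trex1-KO against WT from 1352 higher and 1038 lower to 946 higher and 1598 lower, with a median shift of -0.085, and the share of calls that were higher from 56.6% to 37.2%. The corresponding shares were 57.4% and 41.7% for H151 against WT and 52.6% and 40.3% for SN-011 against WT. With every gene of at least 1 count kept, calls over all genes rose from 325 to 525 with H151, from 340 to 679 with SN-011 and from 23 to 266 between the antagonists, where DESeq2 gave 38, the exact test 84 and the block 44. Only 2 libraries per group and the few counts of Tgtp1 limit the precision.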
